A study of Homo sapiens with 16 samples.

Results

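Complement components and regulators were followed across 16 RNA sequencing libraries of A549 and H2023, 2 established human cell lines derived from non-small cell lung cancers. The genes were chosen by symbol: C3, CFB, CFI, C1R, C1S, CD46, CD55 and CD59, and all 8 were found among the 18227 genes of the tables. In each line, cells labelled wild type were compared with cells labelled as a knockout of ZC3H12A, the gene of Regnase-1, an RNase that cleaves selected mRNAs. The knockout libraries carry 1 clone name per line in their titles, g2-3=Clone2-2 in A549 and g2-1=Clone2-2 in H2023, so the edit and any other trait of that clone cannot be told apart. Normal culture lasted 3 days, and the stem-cell-enriched culture, called oncosphere culture here, lasted 7 days, so culture and time cannot be told apart either. The 8 groups are A549 wild type in normal culture, A549 knockout in normal culture, A549 wild type in oncosphere culture, A549 knockout in oncosphere culture, and the same 4 for H2023, with 2 libraries each. Nothing in the labels says whether the 2 libraries of a group came from separate cultures, so p-values measure the spread between libraries, which may be technical.

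Complement is a cascade of plasma proteins that marks surfaces for removal and can build a pore in a membrane. C1R and C1S are the proteases of the C1 complex, which starts the classical pathway. C3 is the central component, and factor B, encoded by CFB, supplies the protease of the alternative pathway convertase that cleaves C3. Factor I, encoded by CFI, is a protease that inactivates the cleaved forms of C3 and C4 with the help of cofactors. CD46 is such a cofactor on the cell surface, CD55 speeds the decay of convertases, and CD59 blocks assembly of the pore. The liver makes most plasma complement, but epithelial cells, lung epithelium included, also make several components, and tumour cells often carry the surface regulators.

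The genes lie on 6 chromosomes of GRCh38 in the GENCODE annotation, and all are protein coding. C3 is at chr19:6677704-6730562, CFI at chr4:109740694-109802179 and CD59 at chr11:33703010-33736491, each on the minus strand. CFB is at chr6:31945650-31952084 on the plus strand, and its annotated start lies inside the end of the neighbouring gene C2 at chr6:31897785-31945672, so reads near that junction could be counted for either gene. C1S at chr12:6988259-7071032 on the plus strand and C1R at chr12:7080199-7092607 on the minus strand are separated by 9.2 kb. CD55 at chr1:207321376-207386804 and CD46 at chr1:207752057-207795513, both on the plus strand, are 365.3 kb apart.

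Promoter sequence from RefSeq (GRCh38.p14) was found for 6 of the 8 genes, with 11 start sites in all. C3 and C1S had no entry. The 250 bases before the RefSeq start are shown for CFB, CFI, CD55 and CD59. CFB and CFI mRNAs rose in oncosphere culture in both genotypes of both lines, as did those of C1R and CD46, whose windows are not shown. CD55 and CD59 are surface regulators that moved in opposite directions in A549 oncospheres. RefSeq starts differ from the GENCODE starts given above. The CFB and CD55 windows therefore lie inside the gene spans above, and those of CFI and CD59 cross the start of theirs. The CFB window lies beyond the end of C2. The windows are written 5' to 3' on the gene's own strand, with motif matches in capitals: CFB at chr6:31945845-31946094 (plus), CFI at chr4:109802000-109802249 (minus), CD55 at chr1:207321428-207321677 (plus) and the first of 4 CD59 starts at chr11:33736480-33736729 (minus).
CFB: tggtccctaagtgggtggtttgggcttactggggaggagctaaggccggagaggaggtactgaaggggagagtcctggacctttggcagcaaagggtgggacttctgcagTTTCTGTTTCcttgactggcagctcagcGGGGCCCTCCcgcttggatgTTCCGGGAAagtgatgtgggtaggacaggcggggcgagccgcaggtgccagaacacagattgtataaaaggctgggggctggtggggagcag
CFI: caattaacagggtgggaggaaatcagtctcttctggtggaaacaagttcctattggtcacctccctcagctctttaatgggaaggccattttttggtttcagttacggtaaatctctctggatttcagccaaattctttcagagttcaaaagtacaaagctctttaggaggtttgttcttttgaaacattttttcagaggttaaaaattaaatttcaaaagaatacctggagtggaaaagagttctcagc
CD55: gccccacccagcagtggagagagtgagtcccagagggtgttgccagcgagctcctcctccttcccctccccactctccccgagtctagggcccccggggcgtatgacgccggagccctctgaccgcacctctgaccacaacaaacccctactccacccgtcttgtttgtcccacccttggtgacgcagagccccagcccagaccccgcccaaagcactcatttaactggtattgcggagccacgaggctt
CD59: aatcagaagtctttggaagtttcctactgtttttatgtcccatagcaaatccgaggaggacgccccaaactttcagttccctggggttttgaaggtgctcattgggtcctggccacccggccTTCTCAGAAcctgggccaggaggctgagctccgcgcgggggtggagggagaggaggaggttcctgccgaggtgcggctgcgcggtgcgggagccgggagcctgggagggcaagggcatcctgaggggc
In the CFB promoter the capitals mark, in order, an interferon-type element (ISRE, searched as GAAA, any 2 bases and GAAA again) 140 to 131 bases before the start, a match to the NF-kB motif 112 to 103 bases before it, and a STAT-type element (GAS, searched as TTCNNNGAA) 92 to 84 bases before it. Searched on both strands, the ISRE letters were in 3.02% of 35116 promoter windows of the same length, the NF-kB motif in 9.96% and the GAS letters in 6.57%. All of these motifs together were in 8 windows, or 0.0228%. The set counted is the one the CFB window holds, and no other set was counted. This share therefore does not measure how unusual that window is. The capitals in the CD59 window mark a GAS match 128 to 120 bases before the start. The CFI and CD55 windows held no match to these motifs, to AP-1 (TGANTCA, 6.57% of windows) or to C/EBP (TTGCNNAA, 9.05%). Of the windows not shown, those of C1R held GAS and C/EBP matches and those of CD46 none. The other CD59 starts held GAS, C/EBP or AP-1 matches. A match describes letters in a window and does not show that a factor binds there.

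Values are TPM, a length-adjusted level scaled to a nearly fixed sum per library, so levels can be set side by side between genes. The depth of single libraries is unknown. The authors' mean normalized counts sum to between 20453740 and 22760512 per table, and those of the 8 genes range from 39.7 for CFI in A549 normal culture to 46350 for C3 in H2023 oncospheres. ZC3H12A mRNA goes against the knockout label in 3 of 4 comparisons. It was 30.7 and 34.9 TPM in A549 wild type and 16.9 and 19.9 TPM in the knockout in normal culture, but higher in the libraries labelled knockout in A549 oncospheres (60.2 and 55.6 against 48.5 and 49.2 TPM), H2023 normal culture (41.5 and 41.5 against 26.8 and 29.9 TPM) and H2023 oncospheres (94.6 and 69.2 against 32.5 and 26.4 TPM). An mRNA level does not show whether the protein is lost, so the libraries are described by their labels. The epithelial keratins KRT8 and KRT18 were at or above 666 TPM in every library, and EPCAM ranged from 0.37 to 51.0 TPM. KRT19, also an epithelial keratin, ranged from 0.29 to 798 TPM and CDH1 from 12.7 to 84.5 TPM. KRT19 was lowest in A549 knockout in normal culture, at 0.67 and 0.29 TPM. Of the leukocyte markers, PTPRC and CD3E were not found by symbol among the 18227 genes. CD68 reached 179 TPM, LYZ 18.6 TPM and CD14 47.6 TPM, each highest in A549 wild-type oncospheres replicate 1. That library also stood above its replicate for interferon-response genes, with IFIT1 at 158 against 56.0 TPM and ISG15 at 843 against 261 TPM.

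All secreted components whose mRNAs passed the test between cultures were higher in oncospheres, in both lines, and CFI rose by most in each of the 4 pairs. By limma on log2(TPM + 1) with Benjamini-Hochberg adjustment over all genes, 7 of the 8 genes were higher in oncospheres in A549 wild type, where 40.6% of all genes were called and 19.0% were called higher. In A549 knockout it was 7 of 8 (20.8% of genes called, 10.9% higher). In H2023 it was 4 of 8 in wild type (21.4% called, 3.96% higher) and 6 of 8 in knockout (26.9% called, 7.68% higher). None of the 8 was lower in oncospheres in these 4 comparisons. CFB, CFI, C1R and CD46 were called higher in all 4 pairs, as were 1.48% of all genes. The median log2 fold change of the 8 genes was 2.10, 1.71, 0.58 and 2.07 in these 4 pairs, beside -0.01, -0.01, -0.18 and -0.12 for all genes.

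**Figure D1:**
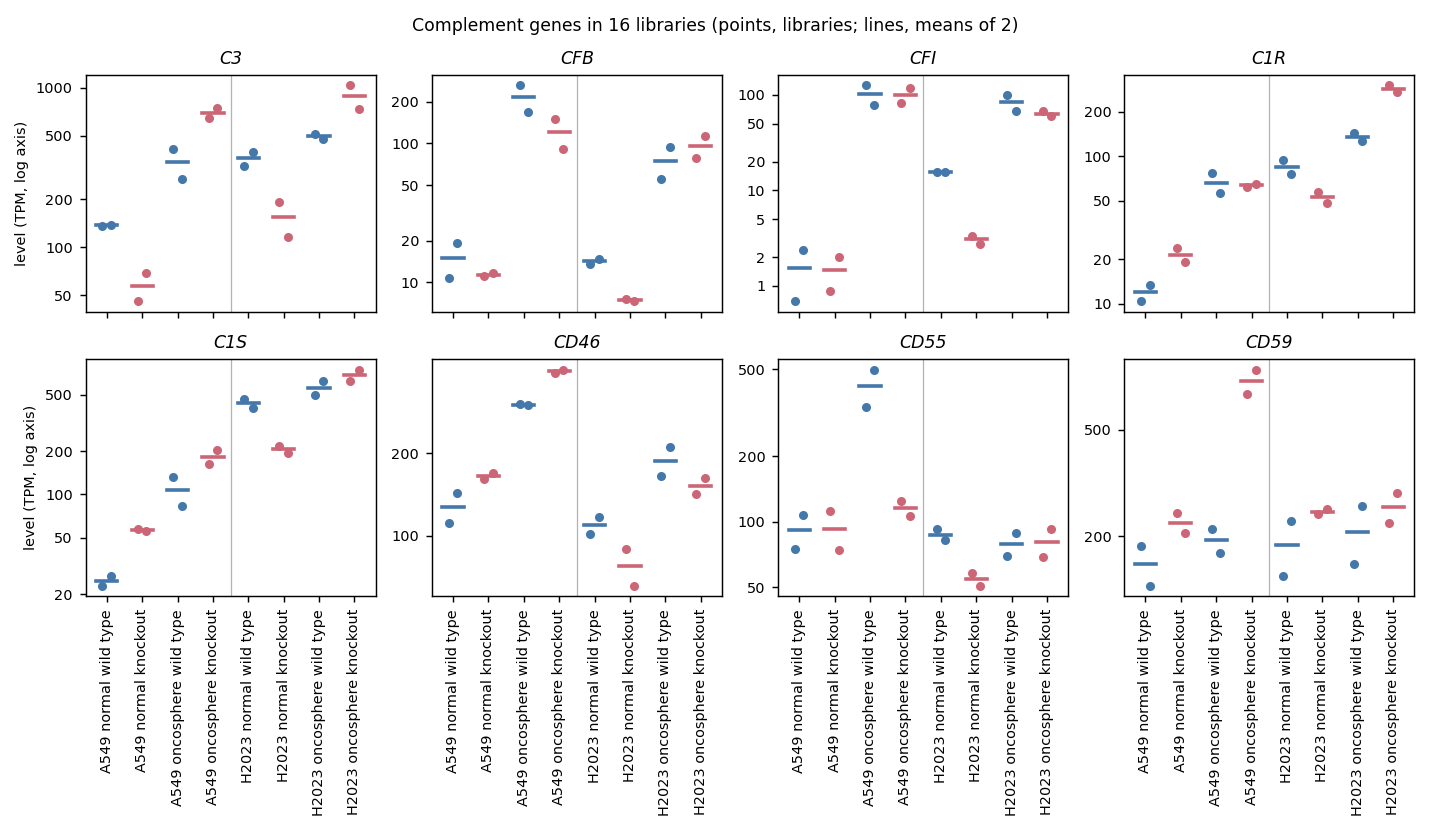
Level of each complement gene in TPM (log axis) in 8 groups of 2 libraries; points are libraries, short lines are means, blue is wild type and red is labelled knockout. CFI and CFB stand higher in every oncosphere library than in every normal-culture library of the same line, and CD59 stands out in A549 knockout oncospheres.

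CFI, the factor that inactivates cleaved C3, moved over the widest range of the 8. It was 0.69 and 2.39 TPM in A549 wild type in normal culture and 126 and 77.5 TPM in oncospheres. In A549 knockout it was 0.89 and 2.01 TPM in normal culture and 82.1 and 117.7 TPM in oncospheres. The A549 groups did not overlap between cultures, and the genotypes overlapped within each culture. The rise was 5.38 on the log2 scale in both genotypes (SE 0.39, adjusted p = 6.93e-05 in wild type and 0.000238 in knockout), and the added 1 TPM understates it because normal-culture values were so low. In H2023, CFI was 15.5 and 15.7 TPM in wild type in normal culture and 100.2 and 68.6 TPM in oncospheres, a log2 rise of 2.34 (SE 0.19, adjusted p = 0.00189). H2023 knockout went from 3.36 and 2.76 TPM to 67.5 and 59.4 TPM, a log2 rise of 3.99 (SE 0.19, adjusted p = 0.000269). The groups with the lowest levels in normal culture therefore reached oncosphere levels close to the others: CFI means in oncospheres lay between 63.5 and 101.7 TPM, against 1.45 to 15.6 TPM in normal culture.

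CFB, the alternative pathway protease, also rose in all 4 pairs. It was 10.7 and 19.3 TPM in A549 wild type in normal culture and 262 and 168 TPM in oncospheres, a log2 rise of 3.77 (SE 0.32, adjusted p = 0.000124). A549 knockout went from 11.1 and 11.6 TPM to 150.4 and 91.3 TPM, a rise of 3.26 (SE 0.32, adjusted p = 0.000607). CFB was lower in H2023 than in A549 wild-type oncospheres, and the knockout oncospheres of the lines overlapped. H2023 wild type went from 13.6 and 14.8 TPM to 55.6 and 94.6 TPM (log2 rise 2.27, SE 0.27, adjusted p = 0.00416), and knockout from 7.55 and 7.33 TPM to 79.0 and 112.4 TPM (rise 3.50, SE 0.27, adjusted p = 0.000756). Every oncosphere library was above every normal-culture library for CFB.

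C3, on which all pathways converge, rose in 3 of the 4 pairs. In A549 wild type it was 137 and 138 TPM in normal culture and 410.2 and 269 TPM in oncospheres, a log2 rise of 1.27 (SE 0.23, adjusted p = 0.00328). In A549 knockout it was 46.1 and 68.8 TPM in normal culture and 644 and 743 TPM in oncospheres, a rise of 3.60 (SE 0.23, adjusted p = 0.000184). H2023 wild type went from 325 and 395 TPM to 513 and 479 TPM, without overlap but with an adjusted p of 0.261. H2023 knockout went from 193 and 115 TPM to 1032 and 739 TPM, a rise of 2.54 (SE 0.27, adjusted p = 0.00179). The highest C3 level of the series was in H2023 knockout oncospheres, where the libraries overlapped with those of A549 knockout oncospheres.

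The C1 proteases rose together. C1R was 10.4 and 13.4 TPM in A549 wild type in normal culture and 76.6 and 55.9 TPM in oncospheres (log2 rise 2.37, SE 0.18, adjusted p = 8.7e-05). C1S was 23.1 and 27.0 TPM in the same normal-culture libraries and 131.5 and 83.6 TPM in the oncosphere libraries (rise 2.03, SE 0.21, adjusted p = 0.000224). The A549 knockout rises were 1.52 for C1R and 1.69 for C1S. In H2023 wild type, which already held 93.8 and 75.1 TPM of C1R in normal culture, C1R reached 143.6 and 127.5 TPM (rise 0.68, SE 0.15, adjusted p = 0.0221), and C1S missed the threshold (467.8 and 402.6 against 498.1 and 617 TPM, adjusted p = 0.156). In H2023 knockout C1R went from 57.2 and 47.8 TPM to 302 and 271 TPM (rise 2.43, SE 0.15, adjusted p = 0.000417), and C1S rose by 1.71. C1S mRNA stood above C1R mRNA in all 16 libraries, by a TPM ratio of 1.50 to 2.88 in A549 and 2.05 to 5.36 in H2023.

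Of the membrane regulators, CD46 rose in every pair, while CD55 and CD59 each rose in 1 pair. CD46 was 111 and 144 TPM in A549 wild type in normal culture and 301 and 299 TPM in oncospheres (log2 rise 1.24, SE 0.12, adjusted p = 0.000218). In A549 knockout the values were 161 and 169 TPM against 392 and 403 TPM (rise 1.26, SE 0.12, adjusted p = 0.000588). Its H2023 rises were 0.77 in wild type (adjusted p = 0.0333) and 0.98 in knockout (adjusted p = 0.012). CD55 rose in A549 wild type, from 75.0 and 107.7 TPM to 337 and 498 TPM (rise 2.18, SE 0.26, adjusted p = 0.000487). CD59 rose in A549 knockout, from 244 and 206 TPM to 680.2 and 836 TPM (rise 1.74, SE 0.19, adjusted p = 0.00089). In the other 6 pairs of these regulators the adjusted p ran from 0.0693 to 0.937.

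**Figure D2:**
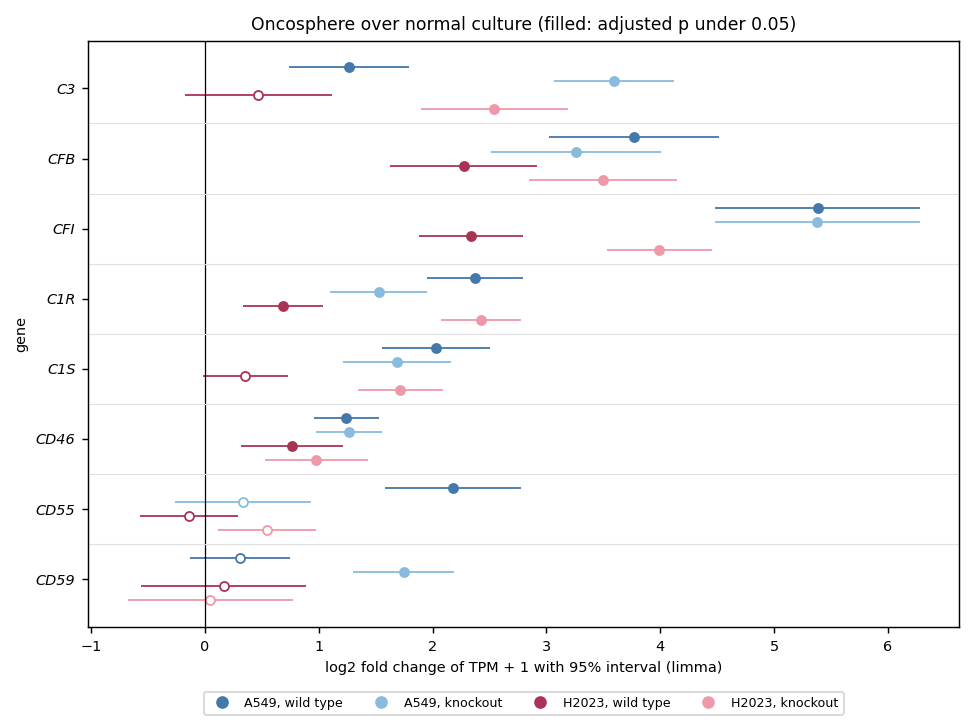
Log2 fold change of TPM + 1, oncosphere over normal culture, for each gene in each line and genotype, with 95% intervals from limma; filled points have an adjusted p under 0.05. CFI lies farthest to the right in each line and genotype, and CD55 and CD59 each have 1 filled point, in A549 wild type and A549 knockout.

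The share of TPM from mitochondrially encoded genes moved with culture, from 10.3% to 18.7% in normal culture and from 19.5% to 25.6% in oncospheres, and its part in these rises was not tested. The hepatocyte gene ALB was also higher in wild-type oncospheres, at 24.5 and 19.1 TPM in A549 and 336 and 269 TPM in H2023, against at most 3.57 TPM in normal culture. APOA1 and TTR were not found by symbol among the 18227 genes. ALB was at most 18.7 TPM in knockout oncospheres, where C3 was highest. Among leukocyte markers, CD14 was higher in A549 oncospheres than in normal culture, at 47.6 and 26.8 against 13.1 and 8.17 TPM in wild type and 34.3 and 28.97 against 6.88 and 6.61 TPM in knockout, and stayed at or below 2.05 TPM in H2023. CD68 means in oncosphere and normal culture were 148.2 and 41.6 TPM in A549 wild type and 37.1 and 34.9 TPM in A549 knockout. In H2023 they were 59.9 and 37.0 TPM in wild type and 100.2 and 35.1 TPM in knockout. LYZ means were 12.7 TPM in A549 wild-type oncospheres, 2.42 TPM in H2023 knockout oncospheres and at most 0.195 TPM elsewhere. The part of ALB and of these leukocyte markers in the complement rises was not tested. In bulk RNA, a change in the share of cells that make an mRNA and a change in the amount per cell cannot be told apart. The A549 counts stayed at 7 of 8 without any 1 library of the pair. In H2023 wild type, the count fell from 4 to 3 without normal-culture replicate 1 or oncosphere replicate 1 and to 2 without normal-culture replicate 2 or oncosphere replicate 2, with CFI and CFB the genes called in each of these.

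In A549, the libraries labelled knockout held less C3 and more C1S mRNA in normal culture. These were the 2 of 8 genes called by limma, where 10.8% of all genes were called. C3 was 46.1 and 68.8 TPM against 137 and 138 TPM in wild type, a log2 fold change of -1.27 (SE 0.19, adjusted p = 0.0234). C1S was 57.0 and 55.2 TPM against 23.1 and 27.0 TPM, a rise of 1.14 (SE 0.12, adjusted p = 0.0114). In the authors' deposited table, 5 of the 8 were called (22.1% of genes): C3 lower, and C1S, C1R, CD59 and CD46 higher, the last 3 by 0.79, 0.71 and 0.49 on the log2 scale. The groups did not overlap for these 5 genes, as for 61.7% of all genes.

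In A549 oncospheres, CD59 and CD55 moved in opposite directions and C3 was higher in the libraries labelled knockout. Limma called 4 of 8 genes, beside 13.2% of all genes. CD59 was 680.2 and 836 TPM against 214 and 173 TPM, a log2 rise of 1.96 (SE 0.16, adjusted p = 0.0041). CD55 was 124.7 and 105.8 TPM against 337 and 498 TPM, a fall of 1.82 on the log2 scale, or -1.82 (SE 0.21, adjusted p = 0.0083). For both genes the knockout and wild-type libraries did not overlap, as for 60.5% of all genes. C3 was 644 and 743 TPM against 410.2 and 269 TPM, a rise of 1.06 (SE 0.22, adjusted p = 0.0372), and CD46 rose by 0.40 (SE 0.09, adjusted p = 0.0492). The CD46 call was lost with a pseudocount of 0.1 TPM (adjusted p = 0.0513) and in the authors' deposited table (adjusted p = 0.0679). That table called CD59, CD55 and C3 in the same directions and C1S higher by 0.83 (20.7% of genes called). In both A549 comparisons no member was called by limma once any 1 of the 4 libraries was left out, where at most 38 of 18227 genes were called at all.

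**Figure D3:**
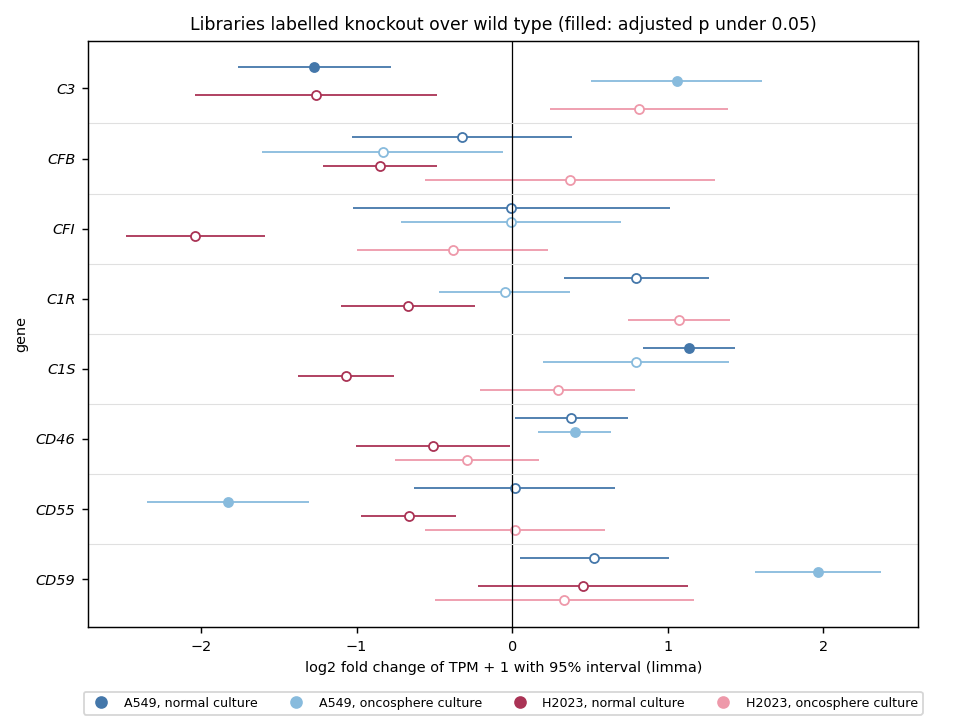
Log2 fold change of TPM + 1, libraries labelled knockout over wild type, for each gene in 4 comparisons, with 95% intervals from limma; filled points have an adjusted p under 0.05. C3 lies left of 0 in both normal cultures and right of 0 in both oncosphere cultures, and CD55 and CD59 lie far apart in A549 oncospheres.

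The surface regulators changed in proportion as well as in amount. The summed level of CD46, CD55 and CD59 was 852 and 971 TPM in A549 wild-type oncospheres and 1197 and 1345 TPM in knockout. CD55 made up 39.6% and 51.3% of that sum in wild type and 10.4% and 7.87% in knockout. CD59 made up 25.1% and 17.8% in wild type and 56.8% and 62.2% in knockout, and CD46 between 30.0% and 35.4% in all 4 libraries. CD55, which acts on convertases, was thus the larger part in wild type and CD59, which acts on the pore, in knockout. In H2023 oncospheres the sum was 392 to 558 TPM, and CD59 made up 40.2% and 46.3% in wild type and 51.5% and 53.2% in knockout.

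**Figure D4:**
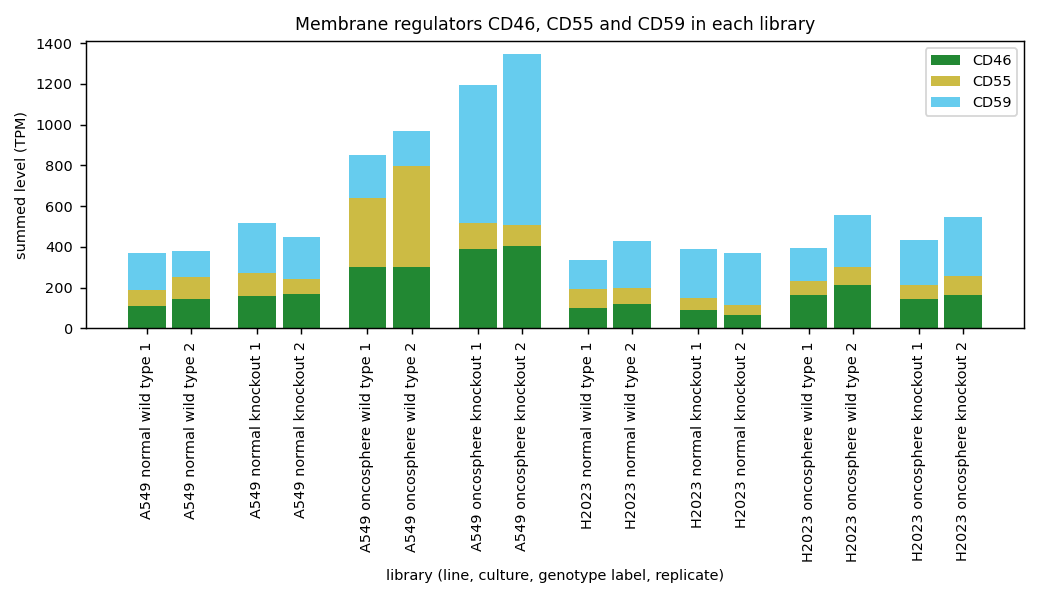
Stacked level of CD46, CD55 and CD59 in TPM for each of 16 libraries. The CD55 part is tallest in the A549 wild-type oncosphere libraries (337 and 498 TPM) and the CD59 part in the A549 knockout oncosphere libraries (680.2 and 836 TPM).

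In H2023 normal culture, 7 of the 8 genes were lower in the libraries labelled knockout in the authors' deposited table, which called 10.8% of its genes and 6.97% as lower. The log2 fold changes there were -2.43 for CFI (adjusted p = 4.5e-21), -1.25 for C3, -1.07 for C1S, -0.90 for CFB, -0.72 for CD55, -0.66 for C1R and -0.50 for CD46 (adjusted p = 0.000293). CD59 was not called. Limma on these 4 libraries called 0 of 8 genes and 0.0% of all genes, and at an unadjusted p under 0.05 it held 7 of the 8 beside 18.2% of all genes. CFI was 3.36 and 2.76 TPM in knockout against 15.5 and 15.7 TPM in wild type, far beyond the replicate spread. C1S was 218 and 195 TPM against 467.8 and 402.6 TPM, and C3 193 and 115 TPM against 325 and 395 TPM. The groups did not overlap for any of the 8 genes, as for 50.6% of all genes. The secreted components together summed to 478 and 369 TPM in knockout and 916 and 903 TPM in wild type.

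In H2023 oncospheres C1R and C3 were higher in the libraries labelled knockout in the authors' deposited table, the 2 of 8 genes called there beside 5.07% of its genes. C1R was 302 and 271 TPM against 143.6 and 127.5 TPM, with a deposited log2 fold change of 0.98 (SE 0.18, adjusted p = 7.22e-06). C3 was 1032 and 739 TPM against 513 and 479 TPM, with 0.79 (SE 0.21, adjusted p = 0.00644). Limma called 0 of 8 genes and 0.0% of all genes, with 2 of the 8 at an unadjusted p under 0.05 beside 15.5% of all genes. C1S, the partner of C1R, was 618 and 744 TPM against 498.1 and 617 TPM and was not called by either. The TPM ratio of C1S to C1R was 2.05 and 2.75 in knockout and 3.47 and 4.83 in wild type.

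C3 was therefore lower in normal culture and higher in oncospheres in the libraries labelled knockout of both lines. In the authors' deposited tables it was the single gene of 14753 with an adjusted p in all 4 that was called in this pattern (0.00678%). By non-overlap of the libraries, 16 of 18227 genes showed it (0.0878%), C3 among them. The pattern counted is the one C3 shows and no other pattern was counted, so these counts do not measure how unusual C3 is. In A549 the difference between the knockout effects in oncosphere and normal culture was 2.33 on the log2 scale (limma interaction, SE 0.32, adjusted p = 0.0123). In H2023, limma called no gene for this difference (0.0%; 6 of the 8 genes and 7.1% of all genes at an unadjusted p under 0.05). The difference of the authors' deposited log2 fold changes was 2.24 in A549 (SE 0.27) and 2.04 in H2023 (SE 0.27, adjusted p = 7.79e-10, normal approximation). In H2023 that test called 4 of 8 genes, all higher (0.39% of genes called): C3, CFI by 1.97, C1R by 1.65 and C1S by 1.25. In A549 it also called 4 of 8 (8.31% of genes called): C3 and CD59 higher, CD55 lower, and C1R lower (-0.92, adjusted p = 0.0335), opposite to C1R in H2023. By limma in A549, CD55 and CD59 also differed between cultures, by -1.84 (SE 0.37, adjusted p = 0.0309) and 1.44 (SE 0.27, adjusted p = 0.0271), so 3 of 8 genes were called beside 6.65% of all genes. None of these 3 A549 calls held without wild-type normal-culture replicate 1, and 1 held without wild-type oncosphere replicate 2 or any of 3 knockout libraries (both of normal culture and oncosphere replicate 2).

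Between lines, the knockout effect on C3 did not pass a test of difference in either culture. The C1 proteases did: in normal culture C1S and C1R were higher in the A549 knockout and lower in the H2023 knockout, and the effects differed by -2.21 (SE 0.28, adjusted p = 0.000558) and -1.47 (SE 0.25, adjusted p = 0.00323). CFI differed by -2.03 (SE 0.48, adjusted p = 0.0181) and CD46 by -0.89 (SE 0.23, adjusted p = 0.0289), which makes 4 of 8 genes beside 12.1% of all genes. CFI and CD46 lost the call without A549 wild-type replicate 1, A549 knockout replicate 2, H2023 wild-type replicate 2 or H2023 knockout replicate 2, leaving 2 of 8. In oncospheres CD55 (1.84, SE 0.35, adjusted p = 0.00381), CD59 (-1.63, SE 0.38, adjusted p = 0.0116) and C1R (1.12, SE 0.25, adjusted p = 0.0096) differed, 3 of 8 genes beside 16.3% of all genes. CD59 lost its call without A549 knockout replicate 2.

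The wild-type lines differed most in C1S. In normal culture it was 467.8 and 402.6 TPM in H2023 and 23.1 and 27.0 TPM in A549, a log2 difference of 4.07 (SE 0.20, adjusted p = 5.04e-08). C1R (2.73), CFI (2.79) and C3 (1.38) were also higher in H2023, 4 of 8 genes beside 41.5% of all genes. The regulators CD46, CD55 and CD59 overlapped between the lines in normal culture. In oncospheres 5 of 8 were called, beside 47.8% of all genes: C1S (2.39) and C1R (1.04) higher in H2023, and CD55 (-2.37), CFB (-1.52) and CD46 (-0.68) lower.

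Beyond these genes, 27 of 49 other listed complement genes were in the tables and 22 reached a mean of 1 TPM in some group. In A549 wild type 18 of the 27 were higher in oncospheres and none lower by limma (19.0% of all genes higher), with a median log2 fold change of 1.16 beside -0.01 for all genes. In A549 knockout 11 were higher (10.9% of all genes). In H2023 the counts were 5 higher and 1 lower in wild type (3.96% and 17.4% of all genes) and 8 higher in knockout (7.68%). In A549 wild type C4BPA, part of the C4b-binding protein, was 1.25 and 3.20 TPM in normal culture and 89.3 and 68.6 TPM in oncospheres. C4A and C4B, near-identical copies whose reads are hard to assign, were both called higher in all 4 pairs.

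In the libraries labelled knockout of A549, limma called 5 of the 27 lower and none higher in normal culture (6.28% and 4.54% of all genes) and 7 lower and 1 higher in oncospheres (7.2% and 6.04%). The authors' deposited tables gave an adjusted p for 18 of the 27 in normal culture and 26 in oncospheres. They called 6 lower and 2 higher in normal culture (10.9% and 11.2% of genes). In oncospheres they called 9 lower and 2 higher (11.4% and 9.29%). C5, whose fragments start the pore, was 2.49 and 3.88 TPM against 24.2 and 24.4 TPM in normal culture (log2 fold change -2.62, SE 0.21, adjusted p = 0.0072) and 8.76 and 3.01 TPM against 67.1 and 58.8 TPM in oncospheres (-3.35, SE 0.42, adjusted p = 0.0103). C4BPA and THBD, the gene of thrombomodulin, were also lower in both cultures. C8G, C4BPB and SERPING1, the C1 inhibitor, were lower in oncospheres. C8G was 9.91 and 7.36 TPM in wild type there and 1.70 and 1.02 TPM in knockout. C4BPB and SERPING1 were already low in wild type, at 2.24 and 1.55 TPM and at 2.22 and 1.15 TPM. SERPING1 was listed at 0 in both knockout oncosphere libraries. CPN1 was lower in normal culture, where wild type held only 1.06 and 0.71 TPM. CLU, or clusterin, which binds the forming pore, was the 1 gene limma called higher, at 1975 and 1335 TPM against 739 and 562 TPM (1.33, SE 0.24, adjusted p = 0.0253). In H2023 limma called none of the 27 in either culture, as it called no gene at all. The authors' deposited tables gave 22 of the 27 an adjusted p in each H2023 culture. They called 5 lower and 2 higher in H2023 normal culture (6.97% and 3.84% of genes). In H2023 oncospheres they called 4 lower and 4 higher (2.85% and 2.22%). In those deposited tables C5 was lower in both cultures (-1.49 and -1.15, adjusted p = 2.12e-21 and 0.018), as was VTN, or vitronectin, which also binds the forming pore (-3.17 and -4.63). THBD was higher in both (0.96 and 1.47), where it was lower in A549, and C2 was higher in oncospheres (1.29, adjusted p = 4.26e-06). The VTN wild-type replicates lay far apart. In H2023 normal culture VTN was 6.38 and 16.3 TPM in wild type and 1.59 and 1.08 TPM in knockout. In H2023 oncospheres it was 1.86 and 14.3 TPM in wild type and 0.27 and 0.30 TPM in knockout. Of 10 transcription factors linked to complement genes, all above 1 TPM in some group, limma called none in the 4 knockout comparisons. The authors' deposited tables called 3 and 2 of them lower in A549 normal and oncosphere culture (10.9% and 11.4% of genes). In H2023 they called 2 lower and 1 higher in normal culture (6.97% and 3.84%) and 2 higher in oncospheres (2.22%). NFKBIZ was called lower in A549 normal culture (-1.18) and higher in H2023 normal culture (0.77) and H2023 oncospheres (2.27). It was not called in A549 oncospheres.

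Across the 16 libraries, which share lines, cultures and clones, the levels of C1R and C1S correlated with r = 0.941 on log2(TPM + 1), those of CFB and CFI with 0.902 and those of C3 and CFI with 0.879. CD55 and CD59 gave -0.027. The genes most alike among 12559 were MR1 for C1S (0.974), CEACAM1 for CFB (0.975), RAB26 for CFI (0.967), NIPAL3 for C1R (0.965), COQ10B for CD46 (0.965), TAF11L11 for CD55 (0.936), CPD for C3 (0.925) and TNFRSF19 for CD59 (0.908). For C1S the next was C5AR1 (0.969), the receptor of a C5 fragment. These values describe 8 groups of 2 libraries, and carry no test.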

How the data were processed

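RNA from 16 libraries of A549 and H2023 was sequenced from mRNA libraries made with a stranded kit, per the labels' protocols. HISAT2, StringTie and GRCh38 are named in the submitters' processing notes, without versions or roles. The authors deposited 4 tables, 1 per line and culture. Each holds TPM per library made by the authors, a deposited mean normalized count (a signal over 4 libraries), the log2 knockout-to-wild-type fold change and its SE, a test score, and a deposited p-value and adjusted p-value under column names that DESeq2 uses, per the file headers. The deposited score has the opposite sign to the fold change in every row, so the fold change gave the directions. It had the sign of the TPM difference for 3635 of 3639 called genes in the table with the most exceptions.

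Rows repeated for 119 identifiers were reduced to 1, leaving 18227 genes. TPM was tested as log2(TPM + 1) with limma 3.58.1 (R 4.3.3, mean-variance trend, two-sided, Benjamini-Hochberg over all genes, threshold 0.05). Knockout comparisons used the 4 libraries of a table, culture contrasts and their interactions the 8 of a line, and line contrasts all 16. Levels set across tables assume that the separately made TPM values are comparable. The authors' deposited fold changes were also differenced between tables by a normal test. The limma code was tested on simulated data. The members and lists were chosen with earlier results of these data known. Genes were named by rule: the 8 members, ZC3H12A, genes of the complement and transcription factor lists reaching 1 TPM in a group, and the genes most correlated with each member. The alternatives were a pseudocount of 0.1 TPM, a filter at 1 TPM, centring on the median, a replicate block, other sets of libraries, the authors' results and leaving out each library. No protein sequences were used. The values of 1 gene of the complement list are not reported here.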

Additional observations from a re-analysis of the deposited data

Results flagged for a closer look

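The 10 differences are listed here because the knockout effect on a gene differed, by a limma interaction test on log2(TPM + 1) at an adjusted p under 0.05, between cultures or between lines. Between oncosphere and normal culture in A549, the effect on C3 differed by 2.33, on CD55 by -1.84 and on CD59 by 1.44 (limma, 6.65% of all genes called). Between H2023 and A549 in normal culture, the effect on CFI differed by -2.03, on C1R by -1.47, on C1S by -2.21 and on CD46 by -0.89 (12.1% of all genes called). Between H2023 and A549 in oncospheres, the effect on C1R differed by 1.12, on CD55 by 1.84 and on CD59 by -1.63 (16.3% of all genes called). C1R is listed in both cultures with opposite signs: in normal culture its level in knockout was above wild type in A549 and below it in H2023, and in oncospheres it was above wild type in H2023 and overlapped wild type in A549. Whether these differences belong to the lines, to the clones or to the edit was not tested.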

How the results depend on the processing

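Of the results for single genes that limma or the authors' tables called, none changed direction under any of the 695 alternatives tried; 602 kept their side of the threshold, 62 fell below it (55 by leaving out a library) and 31 passed it. Among genes called by neither, 55 of 473 alternatives had the opposite sign, none of them called. The count of members called in A549 normal culture, 2, was 5 in the authors' deposited table. In H2023 normal culture it was 0, against 5 with a filter at 1 TPM, 2 with all 8 libraries of the line and 7 in the authors' deposited table. In H2023 oncospheres it was 0, against 1 with all 8 libraries and 2 in the authors' deposited table. For H2023 wild-type culture it was 4, against 2 with only the 4 libraries of the contrast. For the H2023 difference between cultures it was 0, against 4 from the authors' fold changes. The cause of these differences was not tested. Leaving out a library gave 0 to 0 members in each of the 4 knockout comparisons, 7 to 7 for both A549 culture contrasts, 2 to 3 and 5 to 7 for H2023 wild type and knockout, 4 to 4 and 4 to 6 for the lines in normal and oncosphere culture, 0 to 3 and 0 to 0 for the culture differences in A549 and H2023, and 2 to 4 for both line differences. A lone library left in a group is assumed to vary like the others.

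Replicate numbers are shared by wild type and knockout, and deviations of same-numbered libraries correlated with 0.099, 0.185, 0.033 and 0.557 (A549 normal and oncosphere, H2023 normal and oncosphere), but with 2 pairs each the libraries share only a number. With a replicate block, members called were 3, 4, 0 and 0 in these comparisons, beside 11.6%, 15.2%, 0.0% and 0.0% of all genes. Centring on the median moved the split of all genes called higher and lower in H2023 oncosphere over normal culture from 721 and 3180 to 1128 and 1492 in wild type and from 1400 and 3495 to 1842 and 2422 in knockout, and for the lines in normal culture from 4847 and 2720 to 3812 and 3527. The medians of all genes there were -0.18, -0.12 and 0.12 before centring. A TPM keeps no depth, so no floor could be set on low values.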

Other observations

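CFI in A549 normal culture (0.69 to 2.39 TPM in 4 libraries) had a mean normalized count of 39.7 in the authors' deposited table, and neither that table nor limma called a difference between genotypes there. The secreted components C3, CFB, CFI, C1R and C1S summed to 139 to 200.0 TPM in the 4 A549 normal-culture libraries and to 1926 and 2099 TPM in H2023 knockout oncospheres. The TPM ratio of C3 to CFB was 1.57 and 1.60 in A549 wild-type oncospheres, against 4.28 and 8.14 in A549 knockout oncospheres and 23.9 and 26.6 in H2023 wild type in normal culture. C2, the neighbour of CFB, was 0.11 and 0.62 TPM in A549 wild type in normal culture and 18.1 and 19.2 TPM in H2023 knockout oncospheres.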
